A study of Drosophila melanogaster with 4 samples.

Results

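The replication-dependent histone genes of Drosophila melanogaster lie in a tandem array on chromosome arm 2L. The clusters of phosphorylated RNA polymerase II called in a window given for that array are described here. The members are all clusters that overlap the window from 21400000 to 21560000 of 2L on FlyBase release 5. That window holds 9 of the 856 clusters of 2L in replicate 1, 9 of 816 in replicate 2 and 15 of 894 in the combined list, out of 5091, 4876 and 5309 clusters in all. The members were chosen by their called positions in these lists, with earlier results of the same data known, and clusters of the window had already stood out by score. Positions, spacing, widths and scores are therefore given as a description, with no test.

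The mark is phosphoserine 5 in the C-terminal repeats of RNA polymerase II, detected by chromatin immunoprecipitation and sequencing (ChIP-seq) with the rabbit polyclonal antibody ab5131. The cells were CME-W1-Cl.8+ (Clone 8), an established line that the labels trace to male larvae at the third instar and their dorsal mesothoracic disc, which forms the wing, grown as 1 condition with no treatment named. Of the 4 samples, 2 were ChIP and 2 were input DNA. A cluster list came with each ChIP sample and a combined list with the series, and no list of the input libraries was used here. No read counts were given, so depth is unknown and carries no interval. The labels do not say whether the replicates came from separate cultures, and their spread may be technical.

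Histone genes of this class encode the proteins that package newly made DNA, and their transcription is tied to the phase of DNA synthesis. His2A, His2B, His3 and His4 encode the core histones around which DNA is wound, and His1 encodes the linker histone that binds where DNA enters and leaves the nucleosome. In Drosophila the genes are gathered in 1 place, where a nuclear structure called the histone locus body forms, and the repeat unit comes in a longer and a shorter kind. Polymerase II transcribes them, and phosphorylation at serine 5 of its repeats accompanies the start of transcription. Copies that are nearly alike cannot be told apart by a short read, so a read from any copy may match many places.

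In the RefSeq gene table used here, which follows release 6, the array holds 23 His1, 23 His2B, 20 His2A, 22 His4 and 23 His3 genes, together with 8 copies named His-Psi. The order along the arm is His1, His2B, His2A, His4 and His3. It occurs unbroken in 19 sets, leaving aside the small RNA genes sncRNA:430a to sncRNA:430t. In another 3 sets a His-Psi copy stands between His2B and His4. The array is bordered by nrv3 on one side and Lamp1 on the other. Positions were not carried from release 6 to release 5, so a cluster is not assigned here to a particular histone gene or copy. Whether every cluster of the window lies within the array was not checked.

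The modified polymerase was listed at separate sites in the window, some of them in short evenly spaced runs, and most of the window held no cluster. Whether polymerase was absent there or reads could not be placed was not tested. Replicate 1 and replicate 2 each listed 9 clusters, or 56.2 per Mb, against 36.2 ± 1.24 per Mb on the rest of 2L (SD, n = 2). These covered 12.3 ± 0.0924% of the window, against 13.5 ± 0.238% of the rest of 2L (SD, n = 2). Clusters in the window were thus more numerous per length than on the rest of the arm, while the share of sequence they covered was somewhat lower. Their median width was 2.01 kb in replicate 1 and 2.19 kb in replicate 2, against 2.51 and 2.61 kb on the rest of 2L. The combined list gave 15 clusters, 93.7 per Mb and 21.0% of the window, against 38.5 per Mb and 15.3% of the rest of 2L. Regions marked as depleted numbered 0, 0 and 1 on the whole of 2L in the 3 lists, with 0 in the window.

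**Figure D1:**
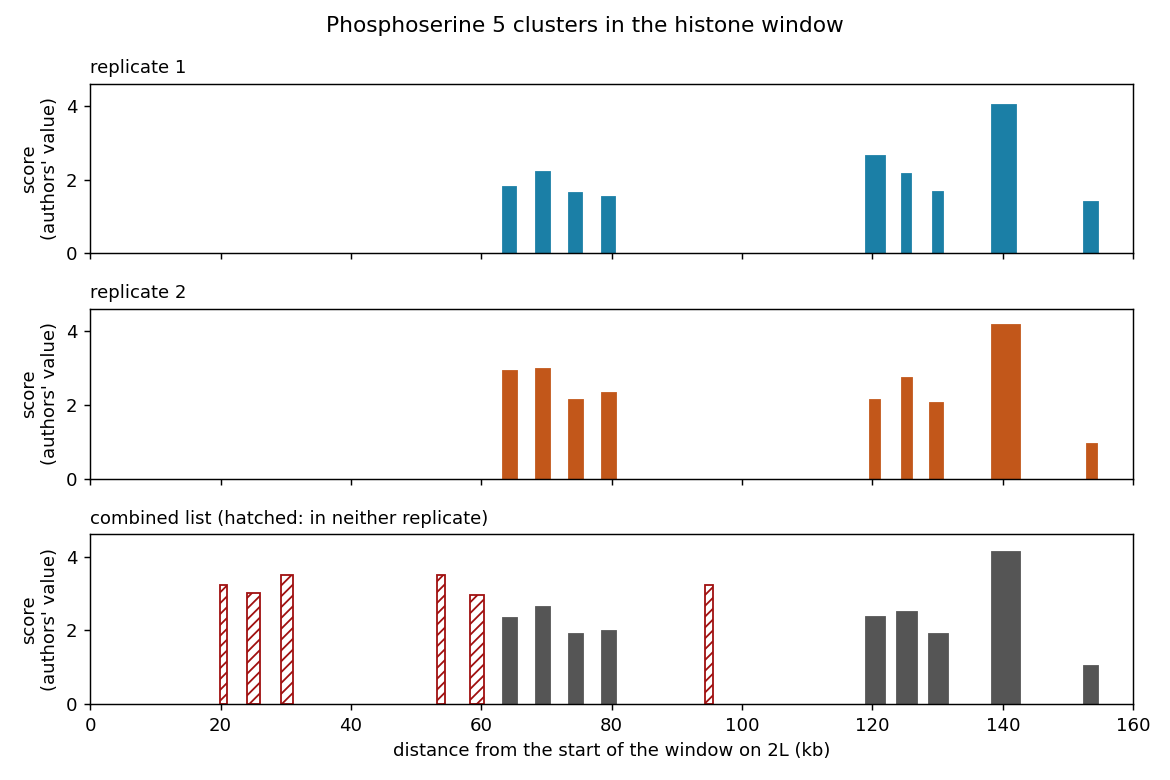
Clusters of the 3 lists along the window on 2L, drawn as bars from start to end, with distance from the window's start in kb on the horizontal axis and the authors' score on the vertical axis. The 9 clusters of each replicate stand in the same 9 places, and 6 hatched clusters of the combined list have no counterpart in either replicate.

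Sequence of the same length on either side held as many clusters or fewer, with more of it covered in the replicates. The 160 kb to the left held 6 clusters in each of the 3 lists and were 17.8 to 18.3% covered, and the 160 kb to the right held 9 in each and were 22.9 to 24.8% covered. The highest score was 1.86 on the left and 2.84 on the right in replicate 1, and 1.96 and 2.74 in replicate 2. Within the window the highest scores were 4.02 and 4.17. The nearest cluster on the left ended at 21349085 in replicate 1, which left 114.258 kb without a cluster before the first one in the window. In replicate 2 that stretch was 114.26 kb, and in the combined list it was 70.9 kb. On the right the next cluster began 17.7 to 18.0 kb beyond the last one of the window.

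The first group of clusters found in both replicates formed an evenly spaced run of 4. In replicate 1 these ran from 21463344 to 21465352, from 21468389 to 21470572, from 21473431 to 21475438 and from 21478472 to 21480477. Their starts lay 5045, 5042 and 5041 bp apart. In replicate 2 the same clusters started at 21463340, 21468384, 21473431 and 21478472, at distances of 5044, 5047 and 5041 bp. The distances within a list thus differed by at most 6 bp, at a length close to the repeat unit of about 5 kb.

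The combined list lengthened this run to 6. Its starts at 21453232, 21458278, 21463336, 21468382, 21473426 and 21478466 were 5046, 5058, 5046, 5044 and 5040 bp apart, a mean of 5.05 kb. The first and second of these 6 are in neither replicate. The first, from 21453232 to 21454424, was only 1193 bp wide, whereas the other 5 were 2199 to 2209 bp wide.

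A second run farther along the window had a shorter step. In the combined list it comprised the clusters from 21518942 to 21521920, from 21523792 to 21526762 and from 21528638 to 21531596, whose starts lay 4850 and 4846 bp apart and whose ends lay 4842 and 4834 bp apart. Their mean step between starts was 4.85 kb, against 5.05 kb in the first run, a difference larger than the 18 bp range of distances within the first run and the 4 bp range within the second. In the replicates these 3 clusters were evenly spaced by some measures and not by others. In replicate 1 their starts lay 5552 and 4840 bp apart, their ends 4087 and 4843 bp and their midpoints 4819.5 and 4841.5 bp. In replicate 2 the starts lay 4842 and 4327 bp apart, the ends 4845 and 4843 bp and the midpoints 4843.5 and 4585 bp. By starts, neither replicate thus held this run. Which kind of repeat unit lies at either run was not tested.

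The start of the strongest cluster of the window kept the phase of this second run in the combined list. It started at 21538352 in the combined list, 9714 bp after the start of the last cluster of the run. Counted from the start of the run it lay 4.00 steps on, 18 bp from a whole number of steps, with a single place in the series of starts left without a cluster. Its end lay 11060 bp and its midpoint 10387 bp after those of the cluster before it, so ends and midpoints did not keep the step. The last cluster of the window, from 21552386 to 21554566, started 492 bp from the nearest whole number of steps. It was also the lowest in score of the window in each list.

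At the left end of the window the combined list gave 3 more clusters, from 21419966 to 21420968, from 21424038 to 21426026 and from 21429296 to 21431096. Their ends were evenly placed, 5058 and 5070 bp apart, while their starts were 4072 and 5258 bp apart. A single cluster from 21494376 to 21495546 stood alone between the 2 runs, 13.7 kb after the nearest cluster on its left and 23.4 kb before the nearest on its right. The first 63.3 kb of the window held no cluster in either replicate. The longest gap between 2 clusters of the window was 38.5 and 39.0 kb in the replicates and 23.4 kb when combined.

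**Figure D2:**
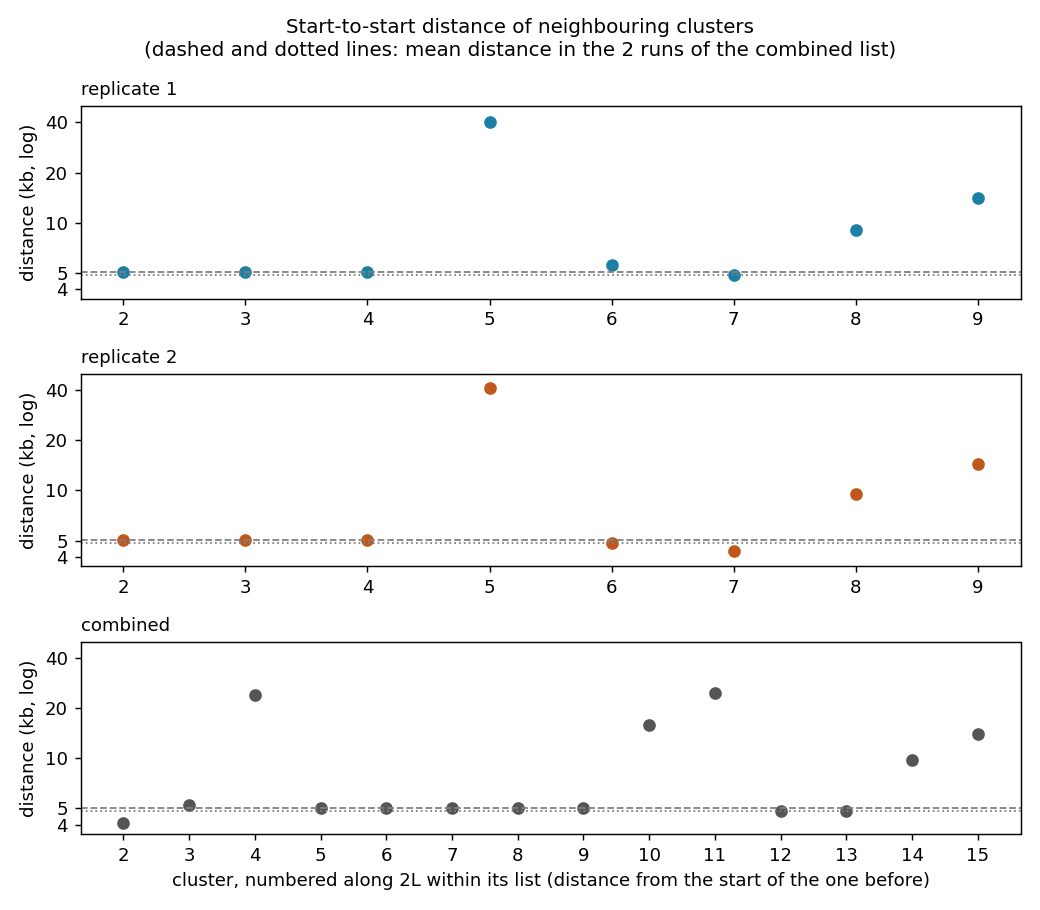
Distance from the start of each cluster to the start of the one before it within the window, in kb on a log axis, with clusters numbered along 2L within each list. The dashed and dotted lines mark the mean steps of 5.05 and 4.85 kb in the 2 runs of the combined list. A single point near the dotted line in a replicate is not a run, since neither replicate held the second run by starts.

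Distances near the unit length, taken as within 5% of 5 kb, were counted in the window and on the whole arm. Of the 8 start-to-start distances in the window, 4 in each replicate measured 4.75 to 5.25 kb, against 4.21% of all such distances on 2L in replicate 1 and 5.03% in replicate 2. In the combined list 7 of 14 did, against 4.59% on 2L. The median distance between midpoints of neighbouring clusters was 5.07 ± 0.0299 kb in the window (SD, n = 2), and on the rest of 2L it was 10.1 kb in replicate 1 and 11.4 kb in replicate 2. Runs were then counted over all chromosome sequences, as clusters in a row whose start-to-start distances differed by at most 50 bp. Runs of 3 clusters occurred elsewhere, numbering 24 and 20 in the replicates and 21 in the combined list. By this measure a run of 4 or more occurred once in each list, in the histone window, and 0 times elsewhere. Measured between ends, replicate 1 had 0 runs of 3 or more in the window, while replicate 2 kept its run of 4. Between midpoints, the longest window run in replicate 1 held 3 clusters, no more than the longest of 26 runs elsewhere. It held 4 in replicate 2 and 5 when combined. With a limit of 100 bp, midpoint runs in replicate 1 again held at most 3 clusters in the window and elsewhere. With a limit of 100 bp the window still held the longest run between starts in each list, and 1 run of 4 appeared elsewhere in the combined list. Between ends, at that limit, runs of 4 elsewhere numbered 1, 1 and 2 in the 3 lists, while the window had a run of 4 in replicate 2, one of 5 when combined and 0 runs in replicate 1. These limits were set after the spacing had been seen, and no test was made.

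Scores are the authors' values, and each is set only against others of its list. The median score in the window was higher than on the rest of 2L in each list. It was 1.80 in the window of replicate 1 against 1.13 on the rest of 2L, 2.32 against 1.19 in replicate 2, and 2.64 against 1.02 in the combined list. The 160 kb on the left and right had medians of 1.39 and 1.43 in replicate 1 and 1.37 and 1.49 in replicate 2. In the combined list these were 1.35 and 1.45. The cluster at 21538352 was the highest of the window in all 3 lists, scoring 4.02 in replicate 1, 4.17 in replicate 2 and 4.13 when combined. On 2L it ranked 4 of 856, 2 of 816 and 4 of 894 in the same order of lists.

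Along the first run the scores in replicate 1 were 1.80, 2.21, 1.64 and 1.54, and in replicate 2 they were 2.92, 2.97, 2.15 and 2.32. The second of these 4 places was the highest in both replicates. The 3 clusters of the second run scored 2.63, 2.16 and 1.66 in replicate 1 and 2.14, 2.73 and 2.07 in replicate 2. The third of these was the lowest of the 3 in both replicates, whereas the highest was the first in replicate 1 and the second in replicate 2. The last cluster of the window had scores of 1.39 and 0.954 in the replicates and of 1.05 when combined. In replicate 1, 60.7% of the clusters on the rest of 2L scored lower than this cluster, but in replicate 2 only 39.8% did.

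Many clusters of the window were narrow for their scores. Elsewhere on 2L, clusters narrower than 2.1 kb with a score of at least 1 were rare, numbering 4 of 847 (0.472%) in replicate 1, 4 of 807 (0.496%) in replicate 2 and 7 of 879 (0.796%) of the combined clusters. In the window they numbered 6 of 9, 3 of 9 and 5 of 15. All 5 of the combined list were found in neither replicate, and its 9 clusters found in both were at least 2.18 kb wide. Along the first run, widths were 2.01 to 2.18 kb in replicate 1 and 2.19 to 2.20 kb in replicate 2. At these places the count thus depended on the list. The limit of 2.1 kb was chosen after the plot of width against score had been seen. Among clusters narrower than 2.25 kb, the median score in the window was 1.66 and 2.23 in the replicates and 2.96 in the combined list. The 11 such clusters of the combined list include the 6 found in neither replicate, all of which scored 2.96 or more. On the rest of 2L the medians were 0.565, 0.528 and 0.368, with 95th percentiles of 1.72, 1.69 and 1.73 and maxima of 3.60, 3.41 and 3.52. The window median of replicate 1 thus lay below that percentile, and in each list the highest narrow cluster of 2L lay outside the window.

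**Figure D3:**
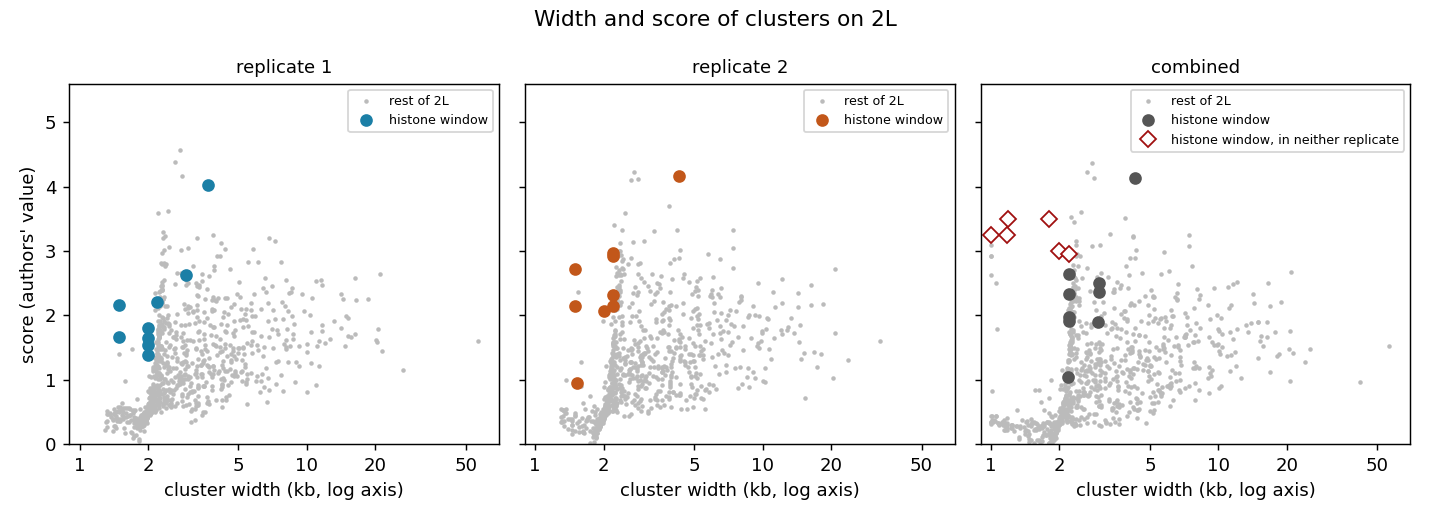
Width of each 2L cluster in kb on a log axis against the authors' score, in 1 panel for each list, with the histone window in colour over the rest of 2L in grey. Many of the window clusters lie at or left of the steep edge of the grey cloud, whereas the highest scoring one is wider than most of 2L, and open diamonds mark the 6 clusters of the combined list found in neither replicate.

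The replicates listed the same places in the window. All 9 clusters of replicate 1 shared at least 1 bp with a replicate 2 cluster (100%, exact 95% interval 66.4 to 100%), against 92.3% of all clusters of replicate 1 on 2L. All 9 of replicate 2 overlapped one of replicate 1 in turn, against 95.1% on 2L. With 9 clusters these shares cannot be told from those of the arm. Each of the 9 was also a single cluster of the combined list, where 99.5% of replicate 1 and 99.6% of replicate 2 clusters of 2L had a counterpart.

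By the median, starts agreed more closely than ends, though not in every pair. Between the replicates the 9 starts differed by a median of 5 bp and the 9 ends by a median of 183 bp, against 51 and 46 bp for the 659 pairs on the rest of 2L. In 6 of the 9 pairs the starts lay within 5 bp of each other, against 9.56% of the pairs elsewhere on 2L. The ends lay within that limit in 0 of 9 pairs, against 10.3%, but in 2 pairs they differed by 6 bp. In the second run the starts differed by 705, 5 and 518 bp and the ends by 752, 6 and 6 bp. In the last cluster of the window the starts differed by 318 bp and the ends by 151 bp. The 5 bp limit was chosen after the differences had been seen.

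Several edges also differed between the lists by nearly equal amounts. In the first run all 4 starts agreed between the replicates to within 5 bp, and the ends of replicate 1 came 190, 14, 183 and 191 bp before those of replicate 2. Replicate 1 thus ended all but 1 of these clusters at nearly the same distance short of replicate 2. In the second run the edges moved by larger amounts, several of them again alike. Against the combined list, the starts of the 3 clusters lay 8, 710 and 704 bp inward in replicate 1 and 713, 705 and 186 bp inward in replicate 2. The ends lay 20, 775 and 766 bp inward in replicate 1 and 772, 769 and 760 bp inward in replicate 2. The 3 clusters were thus 2951, 1486 and 1489 bp wide in replicate 1 and 1494, 1497 and 2013 bp wide in replicate 2, against 2959 to 2979 bp in the combined list. Of the 6 replicate clusters, 4 had nearly the same narrow width, 1 was about as wide as in the combined list and 1, of 2013 bp, lay in between.

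The strongest cluster started within 1 bp in the replicates and ended 594 bp farther on in replicate 2. It was 3.68 kb wide in replicate 1, 4.27 kb in replicate 2 and 4.305 kb in the combined list. The last cluster of the window, which kept no step of either run, differed between the replicates at both edges, by 318 bp on the left and 151 bp on the right.

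**Figure D4:**
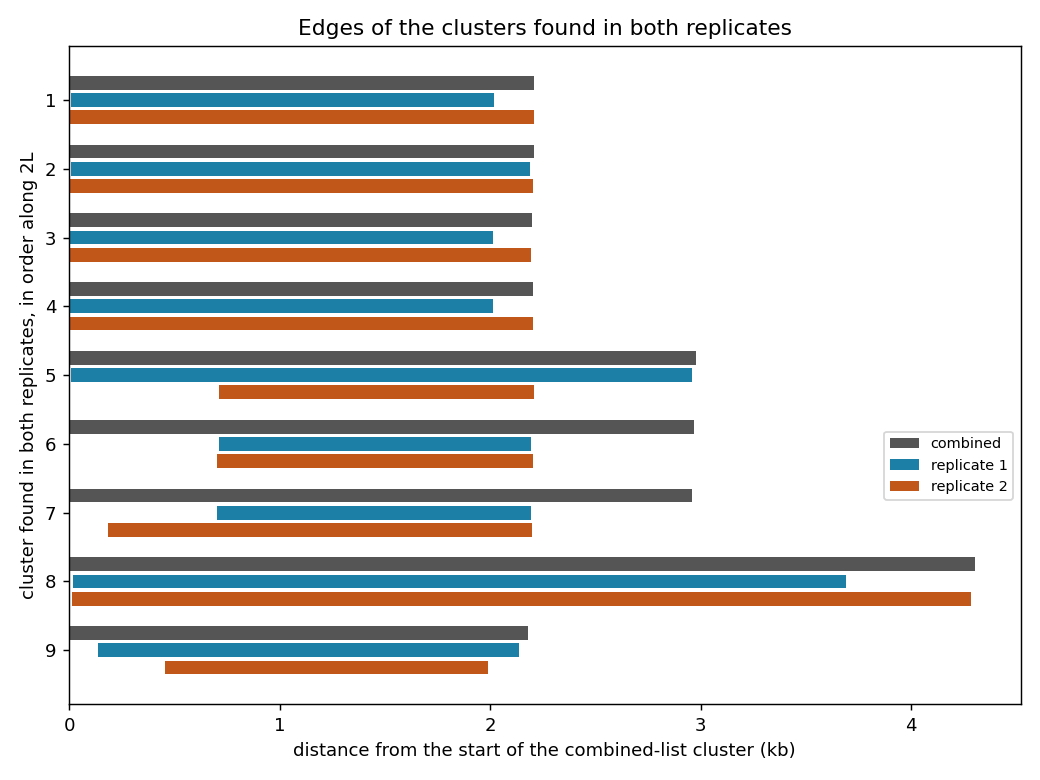
Extent of the 9 clusters found in both replicates, in order along 2L, with distance from the start of the combined-list cluster in kb on the horizontal axis and 1 bar for each list. Bars 1 to 4 share their left edges, bars 5 to 7 are 2.96 to 2.98 kb wide in the combined list and mostly narrower in the replicates, and bar 8 is the cluster with the highest score.

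The combined list named places in the window that neither replicate did. Of its 15 clusters, 9 (60.0%, exact 95% interval 32.3 to 83.7%) had a counterpart in both replicates, against 81.1% of its clusters on 2L. The remaining 6 (40.0%, 16.3 to 67.7%) overlapped neither, against 9.06% on 2L. Elsewhere on 2L such clusters were low in score, with a median of 0.327 over 75 clusters, of which 4 scored 2.9 or more. In the window all 6 did, with scores from 2.96 to 3.51 and a median of 3.24, above the median of 2.34 for the 9 clusters of the window found in both replicates.

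These 6 clusters ranged from 1.00 to 2.21 kb in width. The 3 narrowest, 1003, 1171 and 1193 bp wide, were narrower than any replicate cluster of the genome (1301 bp), and they scored 3.24, 3.24 and 3.51. Edges were set differently in the lists, which limits such comparisons of width. All 5309 combined clusters started and ended at even positions, against 2518 of 5091 starts in replicate 1 and 2440 of 4876 in replicate 2. On the rest of 2L, 45 combined-list clusters were narrower than that limit, with a median score of 0.335, and 1 of them scored above 3. The other 3 were 1801, 1989 and 2207 bp wide, with scores of 3.51, 3.01 and 2.96, and were thus as wide as clusters that the replicate lists contained.

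Among the 15 clusters of the combined list, the wider ones were not the higher scoring ones (Spearman's rho -0.29), whereas rho was 0.61 over the 879 clusters on the rest of 2L. Within the replicate lists rho was 0.65 and 0.74 over the 9 clusters of the window, close to the 0.64 and 0.61 of the rest of 2L. These values are over clusters of 1 list, which are not independent replicates and share their library.

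Identical scores recurred at separate places in the window. The clusters at 21429296 and 21453232 both scored 3.51, and those at 21419966 and 21494376 both scored 3.24, equal within 1e-08. These 4 tied clusters were 4 of the 15 (26.7%) in the window, against 10 of 879 (1.14%) on the rest of 2L with a tied partner on the arm, and all 4 were among the 6 found in neither replicate. In the replicate lists 0 of the 9 window clusters in replicate 1 and 1 of 9 in replicate 2 had a tied partner on 2L, and that partner lay outside the window. On the rest of 2L, 1.89% of the clusters of replicate 1 and 0.620% of those of replicate 2 had one. The sources used here do not say how reads matching several copies were placed or how the lists were joined. The part of either in the spacing, the coverage, the stretches without a cluster, the ties and the extra clusters was not tested.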

How the data were processed

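Cluster lists were analysed for 2 ChIP libraries, and a combined list for the series. Groups and replicate numbers come from the sample titles. The submitters' processing notes name Bowtie 0.12.7 as aligner, and the file headers give FlyBase release 5. The score of a region was deposited by the authors. The sources used here do not give its scale, the region caller, the threshold or the treatment of reads with several matches. Widths are end minus start plus 1. The rest of 2L is every 2L cluster outside the window, over 23.0 Mb less the window. An overlap of 1 bp or more counted as shared, and share intervals are exact (Clopper-Pearson, 95%), cover counting only and treat clusters as independent. The members and all lists were chosen with earlier results of these data known. The rule for named regions was to give every window cluster by position. The planned search of promoters and proteins was not run, since no promoter or protein sequences were given. Only gene names and neighbours were used from the RefSeq table. For the other histone genes and histone locus body genes of the plan, no value is given, since no gene annotation of release 5 was at hand. Functions for spacing, overlap and ties were tested on simulated data. Software was matplotlib 3.10.9, numpy 2.4.6, scipy 1.17.1, pandas 2.3.3 and Python 3.11.15.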

Additional observations from a re-analysis of the deposited data

How the results depend on the processing

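Of 63 alternative values for 10 results, 55 stayed within the replicate spread or interval (counts within 1.5 times), 8 moved further and none reversed. Counts, shares, widths and distances have no sign to reverse, and part of this tally was fixed beforehand. Leaving out 1 of 2 replicates stays within their spread, and no window cluster crossed the window's edge or lay within 1 kb of another. Against the rest of 2L, coverage was lower in the replicates but higher in the combined list (21.0% against 15.3%). With the combined list in place of the replicates the window held 15 clusters instead of 9 and was 21.0% covered instead of 12.3%, the median score was 2.64 instead of 2.06 and the median spacing 5.11 kb instead of 5.07 kb. Coverage was 13.0% with the window shortened by 20 kb on each side, 12.5% with it widened as much and 11.8% with the upper 50% of each list by score. Leaving out each replicate gave 9 clusters, coverage of 12.3 to 12.4%, median widths of 2.01 to 2.19 kb, median scores of 1.80 to 2.32 and median spacings of 5.04 to 5.09 kb. The alternatives for the longest evenly spaced run were chosen after seeing the data. That run held 4 clusters in each replicate by starts, but by ends it held 4 in replicate 2 and replicate 1 had no run of 3, which gave a mean of 2. The cause of these shifts was not tested, save that the upper 50% holds fewer clusters by construction. No paired analysis was possible because the input libraries had no list used here and the results come from no test.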

Other observations

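Many score differences among the 6 combined-list clusters found in neither replicate matched ratios of whole numbers on a log2 scale. Of their 15 pairs, 12 (80%) were tied or differed by log2 of a ratio of whole numbers up to 30 (tolerance 1e-08). The tied pairs at 3.51 and 3.24, for instance, lay 0.26 apart, which is log2 of 6 to 5. Other pairs matched only larger whole numbers, at 20 to 17, 24 to 17 or 19 to 13. The scale of the scores is not given. Of the 36 pairs among the 9 clusters found in both replicates, 0 did so, and of the 2775 pairs among the 75 such combined-list clusters on the rest of 2L, 24 (0.865%) did. The pattern was not particular to the window, since the 4 of those 75 that scored 2.9 or more gave 6 of 6 pairs. Of these, 3 were 1001 bp wide, at 3653910, 5173426 and 22201520, and the fourth, at 23008266, was 2.31 kb wide. Those at 5173426 and 22201520 were tied at 2.92. Tied scores repeat the same difference in several pairs, in the window and outside it, and some ratios follow from others. The pairs that matched are thus not separate matches, and their number depends on the limit of 30. These comparisons were made after the scores had been seen, pairs share clusters, and no explanation was tested.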
